A study of Mus musculus with 6 samples.

Results

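Interferon beta, the chains of the interferon receptors and the Janus kinases that sit on those chains were examined as 8 genes chosen by name: *Ifnb1*, *Ifnar1*, *Ifnar2*, *Ifngr1*, *Ifngr2*, *Jak1*, *Jak2* and *Tyk2*. They were found by symbol, and all 8 were among the 15415 genes listed. The study sequenced RNA from peritoneal macrophages (PEMs), phagocytes of the abdominal cavity, to ask what the loss of Tim-4, a phosphatidylserine receptor encoded by *Timd4*, changes in these cells. Knockout mice were LysM-Cre; Tim-4 fl/fl, in which the Cre recombinase follows the lysozyme gene *Lyz2* and so acts in macrophages and other myeloid cells. Control mice were Tim-4 fl/fl and carried no Cre. There were 3 libraries per group, from male C57BL/6J mice of 6 to 8 weeks, and PEMs had been drawn to the cavity by a starch injection 3 days before harvest. Every one of the 6 libraries is labelled as treated with lipopolysaccharide (LPS), and the methods describe activation with 1 μg/ml LPS for 3.5 hours, so by the labels no library shows cells without LPS. Groups follow the sample titles, since the genotype field names them the other way round (the libraries titled as knockouts carry the value WT there).

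Interferon beta is a type I interferon that macrophages secrete after Toll-like receptor 4 (TLR4) has recognised LPS. It binds a receptor built of the IFNAR1 and IFNAR2 chains, which hold the kinases TYK2 and JAK1, while interferon gamma binds IFNGR1 and IFNGR2, which hold JAK1 and JAK2. The kinases phosphorylate STAT proteins, which enter the nucleus and switch on interferon-stimulated genes, so a macrophage can respond to the interferon that it and its neighbours release.

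The deleted gene and the gene that carries Cre were read first. *Timd4* was at 0.333, 0.394 and 0.246 FPKM (fragment counts scaled to transcript length and to the mapped reads of the library) in knockouts 1 to 3, and at 19.5, 12.05 and 1.19 FPKM in controls 1 to 3. *Lyz2* was at 41.4, 4656 and 106 FPKM in the knockouts and at 7090, 7171 and 8482 FPKM in the controls. Control 3 therefore had little *Timd4* and knockout 2 kept most of its *Lyz2*, and both libraries stood apart from their groups. *Timd4* was still higher in control 3 than in any knockout, but its difference did not pass the limma test used here (log2 difference -2.66, adjusted p = 0.0715) and did so in 4 of 13 alternatives. Whether either library holds mixed or mislabelled animals was not tested and cannot be told from these values, and every difference between the groups carries that doubt. Counts of calls that change without both libraries are given both ways. Libraries held 36170767 to 42217558 reads on the listed genes, and a gene entered the test when its mean reached 1 FPKM in 1 group, which left 9030 genes, 7 of the 8 members among them. Differences were tested with limma on log2(FPKM + 1) and adjusted by Benjamini-Hochberg over all genes tested. It called 660 genes, 232 higher in the knockouts (2.57% of the 9030) and 428 lower (4.74%). The median difference of all genes tested was -0.11 on the log2 scale, and dividing each library by a median-of-ratios factor moved it to 0.01, with 343 genes higher and 326 lower. Without knockout 2 and control 3 there were 158 higher (1.75%) and 336 lower (3.72%). Calls over all genes tested numbered 8 without control 2, 30 without knockout 1 and 63 without knockout 2, so losses of single calls in these fits stand beside a loss of most calls.

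The cells carried pan-macrophage markers in all 6 libraries, and several markers of other cells passed the test between the groups. *Adgre1* (F4/80) was at 235 to 364 FPKM and *Itgam* (CD11b) at 245 to 400.0 FPKM, and 0 of the 8 macrophage markers passed the test (sums 2682 to 7273 against 9401 to 11177 FPKM, in which *Lyz2* weighs most). Of these 8, 4 had an unadjusted p under 0.05 by limma (27.6% of all genes tested). Every knockout library was above every control for 2 of the 8 and below for 3 (11.1% and 23.0% of all genes tested). Without control 3, 1 of the 8 was called higher and 1 lower, and without knockout 2 or knockout 3, 1 was called lower. B cell markers were lower in the knockouts for 5 of 5 genes tested, with a summed level of 2.79 to 5.52 FPKM against 27.6 to 115.5 FPKM. Mast cell markers were lower for 5 of 5 genes tested, with sums of 1.89 to 2.27 against 38.2 to 49.3 FPKM. All 5, and every B cell marker tested but *Cd79a*, reached the filter through the controls alone. The same held for some called markers of other cells, such as *Icam2*, *Alox15*, *Camp* and *Cd2*. Of the large peritoneal macrophage markers 4 of 7 were lower (sums 131 to 345 against 471 to 1553 FPKM), and of the small peritoneal macrophage and monocyte markers 3 of 6 were lower (33.0 to 91.6 against 156 to 3478 FPKM). Neutrophil markers were lower for 2 of 5 genes (71.2 to 201 against 195 to 459 FPKM), and T cell markers for 1 of 2 (1.19 to 1.89 against 2.81 to 11.1 FPKM). Of the 3 mesothelial and fibroblast markers tested 0 passed (11.3 to 30.1 against 2.11 to 11.97 FPKM), while NK cell, conventional dendritic cell and eosinophil markers were all below the filter, with sums of at most 0.181, 1.37 and 1.07 FPKM in any library. Among the plasmacytoid dendritic cell markers 2 of 3 were lower (8.69 to 9.40 against 29.7 to 90.6 FPKM), but *Siglech*, which defines these cells, did not exceed 0.0536 FPKM in any library. Without knockout 2 and control 3 the lower counts were 5 of 5 for B cells, 4 of 5 for mast cells, 7 of 7 and 4 of 6 for large and small peritoneal macrophages, 1 of 5 for neutrophils, 1 of 2 for T cells, 3 of 3 for plasmacytoid dendritic cells and 1 of 8 for macrophages, and 1 of 3 mesothelial and fibroblast markers was higher. With the replicate number as a block 2 of 3 mesothelial and fibroblast markers were higher, and without control 3 alone 1 of 3 (3.90% and 5.68% of all genes tested). The B cell count was 3 of 5 after rescaling, 1 of 5 with voom, and 0 of 5 without control 2, knockout 1 or knockout 2. Large peritoneal macrophage markers gave 0 of 7 without control 2 or knockout 1, 1 of 7 without knockout 2 and 2 of 7 with voom. Small peritoneal macrophage and monocyte markers gave 0 of 6 without control 2 or any 1 knockout and 1 of 6 with voom. Neutrophil markers gave 0 of 5 without control 2 or knockout 1, plasmacytoid dendritic cell markers 0 of 3 without control 2, knockout 1 or knockout 2, and T cell markers 0 of 2 with voom and without control 2 or any 1 knockout, while at least 4 of 5 mast cell markers were lower whichever 1 library was left out. The part of these cell mixtures in the results below was not tested, and in bulk RNA fewer cells of a type and less RNA per cell cannot be told apart.

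Of the 7 members tested, 0 passed the threshold of an adjusted p of 0.05, and 0 had an unadjusted p under 0.05 in the same limma fit, against 27.6% of all genes tested (voom on whole reads recovered from the FPKM values also called 0 members, with 2 under an unadjusted 0.05). The 7 differences lay between -0.31 and 0.31 on the log2 scale with a median of 0.06. Median-of-ratios rescaling moved the median to 0.20, and gave 0.24 for *Ifnar1*, 0.16 for *Ifnar2*, -0.18 for *Ifngr1*, 0.42 for *Ifngr2*, 0.20 for *Jak1*, 0.14 for *Jak2* and 0.45 for *Tyk2*, with 0 past the threshold. *Ifnb1*, the only ligand among the 8, stayed below the filter and was the single member past the threshold when every listed gene was tested.

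**Figure D1:**
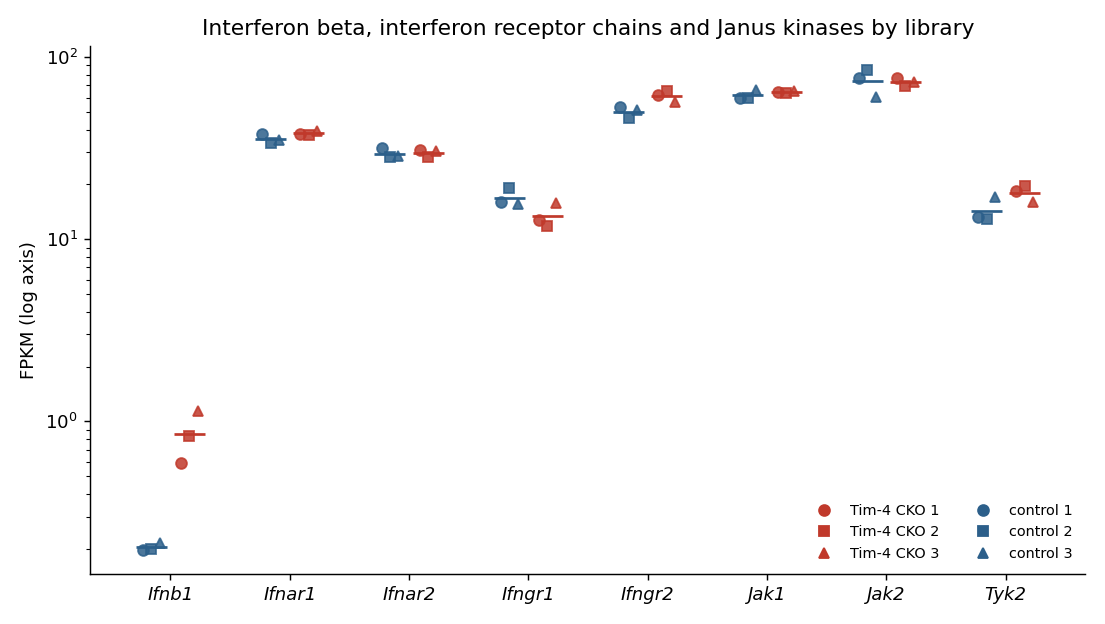
FPKM of the 8 members on a log axis, with 1 point per library, controls in blue to the left and knockouts in red to the right, and lines at the group means. *Ifnb1* lies far below the receptor chains and kinases, between 0.197 and 1.14 FPKM, and is the only gene whose groups are set widely apart.

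**Figure D2:**
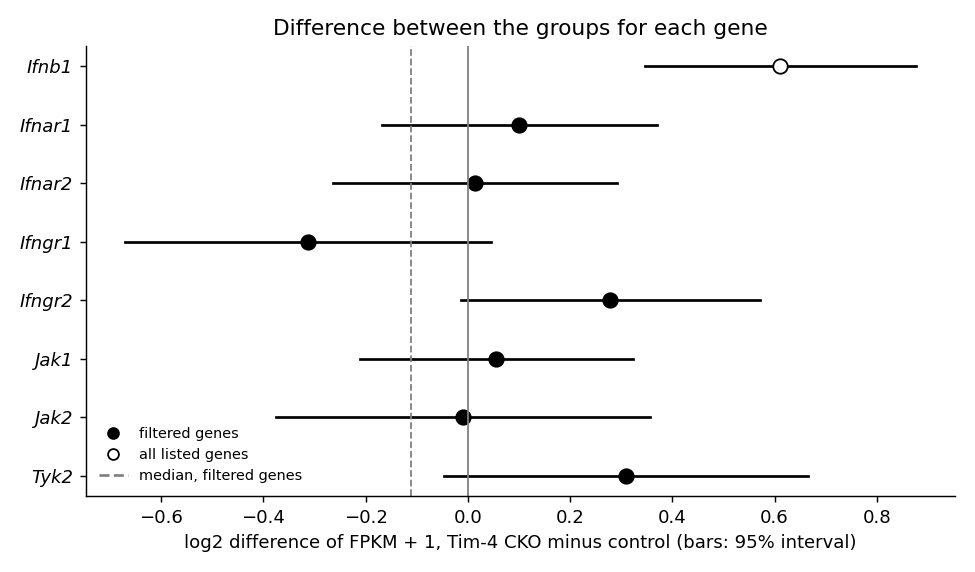
Difference between the groups for each member on the log2(FPKM + 1) scale, knockout minus control, with 95% intervals from limma. Filled points come from the 9030 filtered genes and the open point (*Ifnb1*) from all 15415 listed genes. The 7 filled intervals all include 0, and the dashed line marks the median of the filtered genes at -0.11.

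*Ifnb1* (Entrez 15977, chromosome 4) encodes the ligand. Its transcription after LPS is textbook material for the enhanceosome, a short promoter stretch bound by IRF and NF-κB factors, among others. A stretch of 88 bases around matches to IRF and κB sites, which runs on to a TATAAA match, is printed. It was chosen because *Ifnb1* is the one member whose groups stood widely apart. It lies at chr4:88522871-88522958 of GRCm38.p6 on the minus strand, taken from the RefSeq promoter table, and spans bases 164 to 77 before the annotated start. Capitals mark matches to AANNGAAA (the core that IRF factors read), GGAANNNCC (a form of κB site, whose match here is also found on the other strand) and TATAAA.

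Ifnb1: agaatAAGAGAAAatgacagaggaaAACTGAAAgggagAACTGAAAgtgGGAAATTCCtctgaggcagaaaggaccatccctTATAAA

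All 8 members matched a promoter in that table, and the 250 bases before each start were searched on both strands. *Ifnb1* held 3 matches to AANNGAAA and was the only member with any, while 21.3% of the 32851 promoters in the table held at least 1 and 0.849% held 3 or more. GGAANNNCC was found in *Ifnb1* and *Ifngr2* and in 15.7% of all promoters. TATAAA was found in *Ifnb1* alone among the members and in 12.4% of all promoters. TTCNNNGAA, the letters of a STAT site, was found in *Ifnar2* alone among the members and in 7.02% of all promoters. These matches describe letters in a window and say nothing of binding in these cells.

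*Ifnb1* was higher in every knockout library than in every control library. It was at 0.587, 0.831 and 1.14 FPKM in knockouts 1 to 3, a mean of 0.853 ± 0.278 (SD, n = 3). In controls 1 to 3 it was at 0.197, 0.200 and 0.215 FPKM, a mean of 0.204 ± 0.00971 (SD, n = 3). The means differed 4.18-fold. The whole reads behind these values were 19, 27 and 36 in the knockouts and 6 in each control, 82 against 18 in all. With exact 95% Poisson intervals, which cover counting error only, a control count of 6 reads spans 2.20 to 13.1 reads, and the knockout counts span 11.4 to 29.7, 17.8 to 39.3 and 25.2 to 49.8 reads. The interval of knockout 1 thus meets that of the controls, and those of knockouts 2 and 3 do not.

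**Figure D3:**
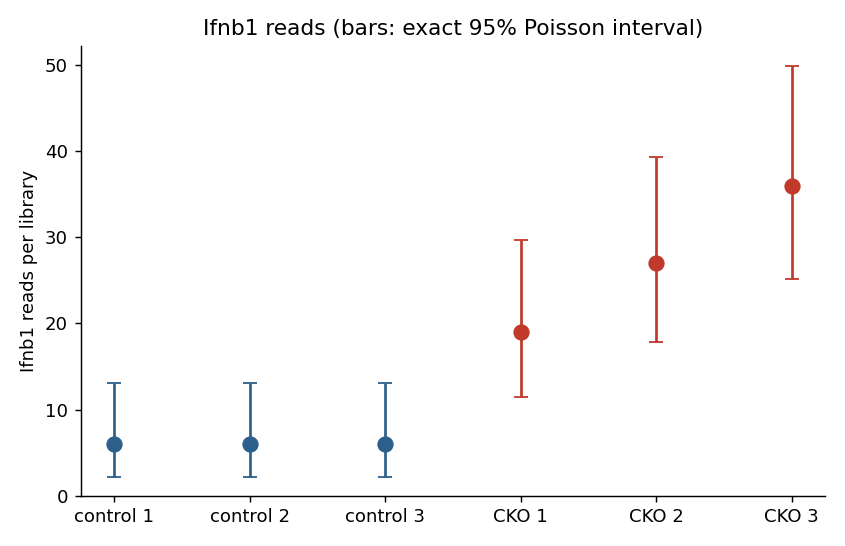
Whole reads of *Ifnb1* recovered in each library, controls in blue and knockouts in red, with exact 95% Poisson intervals on a linear axis from 0. Controls hold 6 reads each and knockouts 19, 27 and 36.

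In the limma fit over all 15415 listed genes the log2 difference of *Ifnb1* was 0.61 (SE 0.11, 95% interval 0.35 to 0.88), with an adjusted p of 0.0464. That fit called 0.915% of the listed genes higher in the knockouts, and 9.63% of them had every knockout library above every control. A pseudocount of 1 is larger than the control values, so this log2 difference understates the ratio, and with a pseudocount of 0.1 it was 1.61 (adjusted p = 0.0294). The call was lost under several alternatives. With the replicate number as a block, limma gave *Ifnb1* an adjusted p of 0.0760. Leaving out any 1 of the 6 libraries also lost the call, with adjusted p from 0.0518 (without knockout 3) to 0.177 (without knockout 2) and a log2 difference of 0.50 to 0.72. Without knockout 2 and control 3 the difference was 0.62 (adjusted p = 0.161). An exact two-sided permutation test of 3 against 3 gave p = 0.1, the smallest it allows. A heat map of cytokine and inflammatory genes that the study drew from these same libraries shows *Ifnb1*, as read from its picture, so its direction here is not independent evidence. The same holds for *Stat2*, *Cxcl10* and *Cd40*, which are described further on.

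Among the 12017 genes with a mean of at least 0.1 FPKM, those with a profile over the 6 libraries most like *Ifnb1* were *Vill*, *Htr2b* and *Ppt1*. Their root mean square distances from *Ifnb1* were 0.1004, 0.110 and 0.121, after each log2(FPKM + 1) profile had been centred and divided by its SD. *Ppt1*, a lysosomal thioesterase, was at 25.1, 28.0 and 29.4 FPKM in the knockouts and at 21.7, 20.8 and 21.7 FPKM in the controls. As with *Ifnb1*, knockout 3 was highest, knockout 1 was the lowest of the knockouts, and the 3 controls lay close together.

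Of 20 other type I, II and III interferon genes looked for, 1, *Ifng*, could be read, and the others were not analysed here. The table lists genes from a mean normalised count of 1.11 upwards. *Ifng*, the ligand of the IFNGR chains and a product of lymphocytes and NK cells, was at 0.275, 0.235 and 0.162 FPKM in the knockouts and at 0.796, 0.679 and 0.0685 FPKM in the controls. The groups overlapped, since control 3 was the lowest library of the 6, and *Ifng* did not reach the filter.

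Neither chain of the type I interferon receptor passed the threshold, and for both the groups overlapped. *Ifnar1* (Entrez 15975) encodes the chain that holds TYK2. It was at 38.1, 37.2 and 39.1 FPKM in the knockouts and at 37.8, 33.8 and 34.9 FPKM in the controls. Control 1 lay inside the range of the knockouts, and the log2 difference was 0.10 (SE 0.11, 95% interval -0.17 to 0.37), with an adjusted p of 0.601 by limma. *Ifnar2* (Entrez 15976) encodes the chain that holds JAK1 and binds the ligand most tightly. It was at 30.8, 28.3 and 30.4 FPKM in the knockouts and at 31.8, 28.2 and 28.6 FPKM in the controls. The controls spanned the whole range of the knockouts, with a log2 difference of 0.01 (SE 0.12, 95% interval -0.26 to 0.29) and an adjusted p of 0.950. As a fold, the interval of *Ifnar2* runs from 0.833 to 1.22 and that of *Ifnar1* from 0.890 to 1.29.

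The 2 chains of the interferon gamma receptor lay on opposite sides of 0, neither past the threshold. *Ifngr1* (Entrez 15979) encodes the ligand-binding chain that holds JAK1. It was at 12.8, 11.8 and 15.8 FPKM in the knockouts and at 16.1, 19.1 and 15.7 FPKM in the controls. Knockout 3 lay just above control 3, so the groups overlapped, and the log2 difference was -0.31 (SE 0.15, 95% interval -0.67 to 0.05, adjusted p = 0.229 by limma). *Ifngr2* (Entrez 15980) encodes the accessory chain that holds JAK2. It was at 62.1, 64.9 and 56.5 FPKM in the knockouts and at 53.1, 46.2 and 51.5 FPKM in the controls. Every knockout library was above every control, with a log2 difference of 0.28 (SE 0.12, 95% interval -0.01 to 0.57, adjusted p = 0.198 by limma). Of the 7 members tested *Ifngr2* was the only one whose groups did not overlap in this direction, against 11.1% of all genes tested, and 0 members had every knockout below every control, against 23.0% of all genes tested.

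Ratios between members were also taken within each library, where the scaling of the library cancels. The ratio of *Ifngr2* to *Ifngr1* was 4.85, 5.48 and 3.57 in the knockouts and 3.30, 2.42 and 3.29 in the controls. Each knockout was above each control, and the ratio was 1.53-fold higher by geometric means. The exact two-sided permutation test over the 6 libraries gave p = 0.1, the smallest it allows, and 0.2 after adjustment over the 4 ratios computed. The ratio of *Ifnar2* to *Ifnar1* was 0.810, 0.761 and 0.777 in the knockouts and 0.841, 0.834 and 0.820 in the controls. These also did not overlap, but the ratio was only 0.941-fold of the control value (exact permutation p = 0.1, adjusted 0.2).

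**Figure D4:**
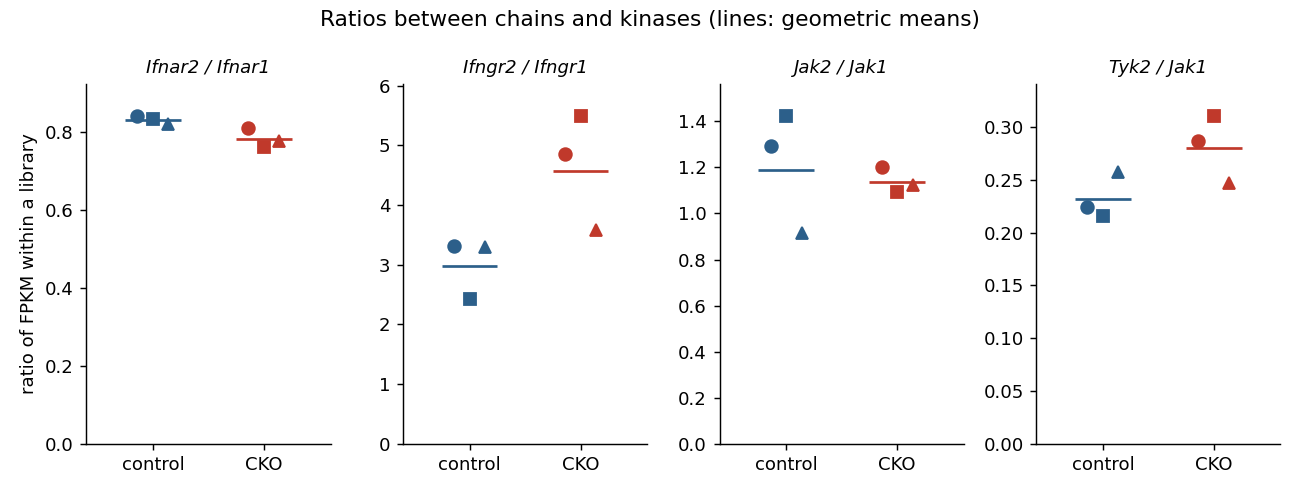
Ratio of FPKM between a pair of members within each library for 4 pairs, controls in blue and knockouts in red, with lines at the geometric means and each axis from 0. The *Ifngr2* to *Ifngr1* ratio is 3.57 or more in the knockouts and 3.30 or less in the controls, and for *Jak2* to *Jak1* and *Tyk2* to *Jak1* the groups overlap.

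The Janus kinases did not pass the threshold either. *Jak1* (Entrez 16451) encodes the kinase shared by both receptors. It was at 64.1, 63.2 and 64.9 FPKM in the knockouts and at 59.3, 59.9 and 65.9 FPKM in the controls. Control 3 was the highest of the 6 libraries, and the log2 difference was 0.06 (SE 0.11, 95% interval -0.21 to 0.32, adjusted p = 0.777 by limma). *Jak2* (Entrez 16452) encodes the kinase of the interferon gamma receptor, which also serves receptors for colony-stimulating factors. It was at 77.0, 69.1 and 72.8 FPKM in the knockouts and at 76.8, 85.1 and 60.4 FPKM in the controls. The controls spread over more than the knockouts in both directions, with a log2 difference of -0.01 (SE 0.16, 95% interval -0.37 to 0.36, adjusted p = 0.975 by limma) that turned to 0.14 after median-of-ratios rescaling. *Tyk2* (Entrez 54721) encodes the kinase held by IFNAR1. It was at 18.4, 19.6 and 16.01 FPKM in the knockouts and at 13.3, 12.9 and 17.0 FPKM in the controls. Knockouts 1 and 2 were above all controls and knockout 3 was below control 3. The log2 difference was 0.31 (SE 0.15, 95% interval -0.05 to 0.67, adjusted p = 0.230 by limma), and it reached 0.43 (adjusted p = 0.0794) without control 3, the lowest adjusted p of any tested member under any of the alternatives.

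The ratio of *Jak2* to *Jak1* was 1.20, 1.09 and 1.12 in the knockouts and 1.29, 1.42 and 0.917 in the controls, so the controls enclosed the knockouts (exact permutation p = 0.9). The ratio of *Tyk2* to *Jak1* was 0.287, 0.310 and 0.247 in the knockouts and 0.224, 0.216 and 0.257 in the controls, with knockout 3 below control 3 (exact permutation p = 0.2, adjusted 0.267). *Jak3*, the fourth Janus kinase and a partner of the common gamma chain, was at 2.01 to 2.47 FPKM in the knockouts and at 1.604 to 2.68 FPKM in the controls, with a log2 difference of 0.08 (adjusted p = 0.785 by limma).

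FPKM is per length, so the members could be ordered by level. Means over the 6 libraries were 73.5 FPKM for *Jak2*, 62.9 for *Jak1*, 55.7 for *Ifngr2*, 36.8 for *Ifnar1*, 29.7 for *Ifnar2*, 16.2 for *Tyk2*, 15.2 for *Ifngr1* and 0.529 for *Ifnb1*. *Ifngr2* was above *Ifnar1*, *Ifnar1* above *Ifnar2* and *Ifnar2* above *Tyk2* in 6 of 6 libraries. *Jak2* was above *Jak1* in 5 of 6, *Jak1* above *Ifngr2* in 5 of 6, and *Tyk2* above *Ifngr1* in 4 of 6, so these neighbours could not be ordered beyond the spread. The last of these pairs lay in opposite order in the 2 groups, with means of 18.0 FPKM for *Tyk2* and 13.5 for *Ifngr1* in the knockouts and of 14.4 and 16.9 FPKM in the controls.

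The receptor genes are partly clustered in the genome. In the RefSeq annotation of GRCm38.p6 *Ifnar2*, *Il10rb*, *Ifnar1* and *Ifngr2* follow one another on chromosome 16 with no other protein-coding gene between them. *Il10rb*, a chain of the interleukin-10 receptor, was at 76.8, 73.3 and 68.3 FPKM in the knockouts and at 57.5, 66.9 and 70.3 FPKM in the controls, with a log2 difference of 0.17 (adjusted p = 0.439 by limma). None of the 4 neighbours passed the threshold. Their differences were above 0, as were those of 36.5% of all genes tested (51.6% after rescaling), but that of *Ifnar2* turned below 0 in 3 of 13 alternatives. *Ifngr1* lies on chromosome 10, *Jak1* on chromosome 4, *Jak2* on chromosome 19 and *Tyk2* on chromosome 9.

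*Ifngr1* had the largest absolute difference among the members tested before rescaling, by a small margin over *Tyk2*, and after rescaling *Tyk2*, *Ifngr2*, *Ifnar1* and *Jak1* were ahead of it. The genes with the profile most like it, among 5459 with a mean of at least 5 FPKM, were *Ell2*, *Rps27rt* and *B4galt1* (root mean square distances of 0.0907, 0.115 and 0.142 over the 6 libraries). *Ell2*, a transcription elongation factor, was at 51.2, 48.5 and 80.0 FPKM in the knockouts and at 80.6, 116 and 76.6 FPKM in the controls, with control 2 highest and knockout 2 lowest as for *Ifngr1*. *Rps27rt* is a retrogene with a near-identical parent, so its level is uncertain.

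Calls among related receptors are read against the shares over all genes tested, 2.57% higher and 4.74% lower. Of 7 other class II cytokine receptor chains 3 were tested and 0 passed (median log2 difference 0.17). In 1 of the 3 every knockout library was below every control (23.0% of all genes tested). Without control 3, 1 of the 3 was called lower (8.47% of all genes tested). *Il10ra*, the ligand-binding chain for interleukin-10, was at 27.2 to 30.8 FPKM in the knockouts and at 21.9 to 28.4 FPKM in the controls. Of 29 other receptor chains that signal through Janus kinases, 17 were tested, of which 1 was higher, 1 was lower and 15 did not pass (median 0.14). *Il15ra*, the chain that binds and presents interleukin-15 and holds no Janus kinase itself, rose from 8.90, 6.496 and 5.996 FPKM in the controls to 27.5, 29.2 and 19.8 FPKM in the knockouts, a log2 difference of 1.70 (SE 0.20, adjusted p = 0.00963 by limma). *Il2ra* fell from 3.69, 3.04 and 2.15 FPKM to 1.36, 0.567 and 0.728 FPKM, a log2 difference of -1.07 (SE 0.21, adjusted p = 0.0306 by limma). This gene reached the filter through the controls alone. It encodes the alpha chain for interleukin-2, likewise without a kinase, which lymphocytes also carry, and B cell markers were lower in the same libraries. The call of *Il15ra* held in 11 of 13 alternatives and was lost without control 2 or knockout 1, and that of *Il2ra* held in 6 of 13 and was lost after rescaling, with voom, on all listed genes and without control 2 or any 1 knockout. With the replicate block 2 of the 17 were higher and 1 was lower (3.90% and 5.57% of all genes tested), and without knockout 2 and control 3 there were 1 higher and 2 lower (1.75% and 3.72%).

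Downstream of the kinases, 1 of 9 signal transducers passed, in the higher direction (2.57% of all genes tested). *Stat2*, which joins IRF9 in the complex formed after type I interferon, was at 98.8, 84.6 and 75.6 FPKM in the knockouts and at 51.2, 36.5 and 23.3 FPKM in the controls. The groups did not overlap, and the log2 difference was 1.26 (SE 0.27, adjusted p = 0.0383 by limma). This call held in 5 of 13 alternatives and was lost after median-of-ratios rescaling, with voom, on all listed genes, and without control 2, any 1 knockout, or knockout 2 and control 3 together. Without control 3 there were 2 higher and 1 lower of the 9 (5.68% and 8.47% of all genes tested), and without knockout 2 and control 3 there were 0 (1.75% and 3.72%).

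Of 14 negative regulators of the pathway 13 were tested and 1 passed, in the lower direction (4.74% of all genes tested). *Ptpn1* encodes PTP1B, a phosphatase known to remove phosphate from JAK2 and TYK2. It was at 43.6, 35.3 and 41.1 FPKM in the knockouts and at 82.6, 69.7 and 78.4 FPKM in the controls, well apart, with a log2 difference of -0.93 (SE 0.14, adjusted p = 0.0149 by limma). Its call held in 10 of 13 alternatives and was lost without knockout 1, knockout 2 or control 2. The feedback inhibitors *Usp18*, which blocks IFNAR2, and *Socs3* did not pass. *Usp18* was at 298, 277 and 213 FPKM in the knockouts and at 187, 139 and 53.2 FPKM in the controls (adjusted p = 0.126), and *Socs3* at 325, 324 and 163 against 178, 122 and 45.2 FPKM (adjusted p = 0.139). With the replicate block both passed and the count became 2 higher and 1 lower (3.90% and 5.57% of all genes tested).

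Upstream, 16 genes that carry the signal from TLR4 to the *Ifnb1* promoter were all tested, and 1 passed, in the higher direction (2.57% of all genes tested), with a median log2 difference of 0.01. *Irf5*, a transcription factor of Toll-like receptor signalling, was at 41.1, 40.8 and 33.3 FPKM in the knockouts and at 24.9, 21.7 and 19.1 FPKM in the controls. It was higher by 0.78 on the log2 scale (SE 0.15, adjusted p = 0.0297 by limma), a call that held in 9 of 13 alternatives and was lost without knockout 1, knockout 2 or control 2, and without knockout 2 and control 3 together. *Cd14*, the co-receptor that hands LPS to TLR4, was at 346, 262 and 406 FPKM in the knockouts and at 631, 554 and 484 FPKM in the controls, below in every library but not past the threshold (log2 difference -0.73, adjusted p = 0.0631). Without control 3 it was called lower (8.47% of all genes tested), and without knockout 2 and control 3 the list gave 0 calls (1.75% higher and 3.72% lower). *Irf7*, itself an interferon target, was at 320, 317 and 238 FPKM against 240, 159 and 66.3 FPKM (adjusted p = 0.160).

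Interferon-stimulated genes are commonly read as targets of the type I receptor, but whether that receptor set their levels here was not tested. Of 26 type I interferon targets 24 were listed and tested. All 24 had a difference above 0 with a median of 0.93 on the log2 scale, against -0.11 over all genes tested, and 0 passed the threshold, with 17 of 24 at an unadjusted p under 0.05 by limma (27.6% of all genes tested). In 15 of the 24 every knockout library was above every control (11.1% of all genes tested). *Cxcl10*, a chemokine for T cells, was at 3275, 3404 and 2102 FPKM in the knockouts and at 1399, 1474 and 354 FPKM in the controls (log2 difference 1.67, SE 0.54, adjusted p = 0.103). *Rsad2*, which encodes the antiviral enzyme viperin, was at 2586, 3103 and 1751 FPKM in the knockouts and at 1227, 1025 and 357 FPKM in the controls (log2 difference 1.66, SE 0.46, adjusted p = 0.0724).

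The controls themselves differed widely in these genes. Control 3 was the lowest library for 24 of 24 type I targets, against 13.3% of all genes tested, and the median over the targets of its difference from the mean of controls 1 and 2 was -1.46 on the log2 scale. *Ifnb1* was not lowest in control 3, at 0.215 FPKM there and at 0.197 and 0.200 FPKM in controls 1 and 2. Each of these values rests on 6 reads, with an exact Poisson interval of 2.20 to 13.1 reads. Counts this low cannot decide whether *Ifnb1* shared a fall of the size seen in the targets. The members tested did not share the low level of control 3, which was lowest for 1 of 7. Without control 3 the median difference of the targets was 0.57 and 5 of 24 passed, and without control 1 it was 1.25 and 8 passed. Leaving out knockout 2 and control 3 together gave a median of 0.53 with 23 of 24 above 0 and 0 past the threshold. With the replicate block, 10 of 24 passed, all higher. Of all genes tested, 3.90% were called higher and 5.57% lower under that block, 5.68% higher and 8.47% lower without control 3, and 3.08% higher without control 1.

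**Figure D5:**
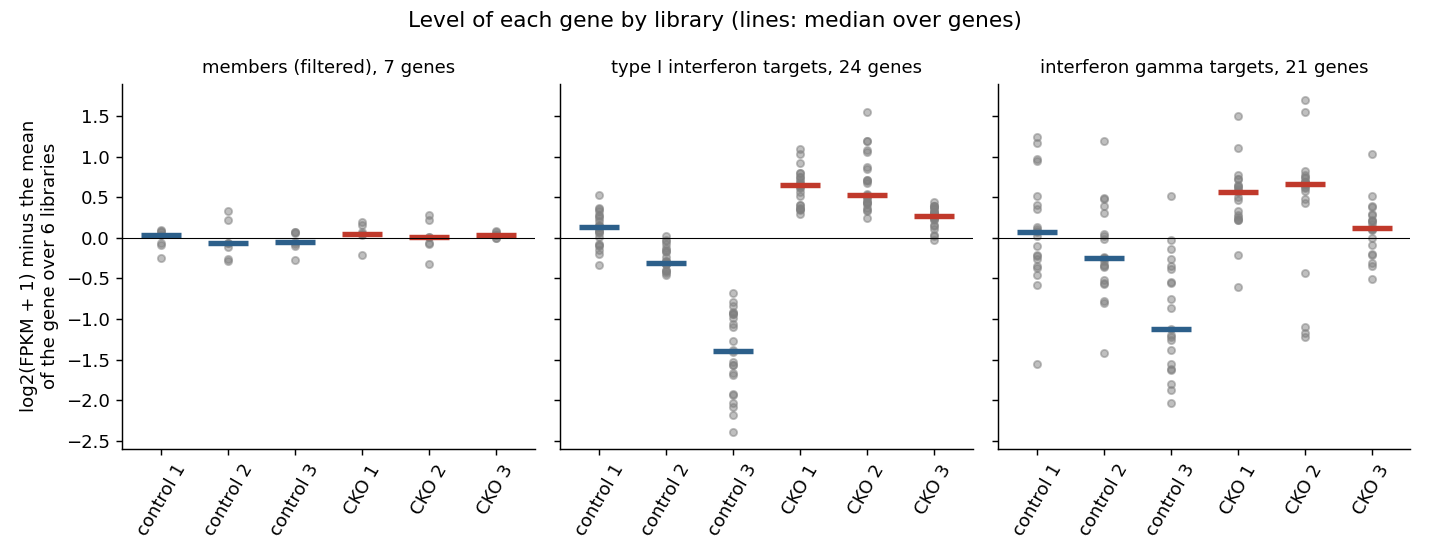
Level of each gene by library as log2(FPKM + 1) minus its mean over the 6 libraries, with 1 grey point per gene and lines at the medians, for the 7 members tested, the 24 type I interferon targets and the 21 interferon gamma targets. The members stay near 0 in all libraries, while control 3 is the lowest library for 24 of 24 type I targets and for 13 of 21 interferon gamma targets.

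Interferon gamma targets, many of which type I interferon also induces, were read in the same way. Of 22 genes 21 were tested, 4 were higher (2.57% of all genes tested) and 1 was lower (4.74%), and 16 of 21 lay above 0 (36.5%). The median log2 difference was 0.96, but control 3 was the lowest library for 13 of 21, and the median was 0.58 without it, with 7 higher and 2 lower (5.68% and 8.47% of all genes tested). Without knockout 2 and control 3 it was 0.43, with *Fcgr1* and *Irf1* higher and *Iigp1*, named here after its values were seen, lower (1.75% and 3.72% of all genes tested), while *Cd274*, *Cd40* and *Ciita* no longer passed. *Fcgr1*, which encodes the high-affinity IgG receptor CD64, rose from 5.16, 5.76 and 6.58 FPKM in the controls to 50.2, 57.5 and 36.1 FPKM in the knockouts. Its log2 difference was 2.82 (SE 0.19, adjusted p = 0.00150 by limma), and it passed in 13 of 13 alternatives. *Irf1*, a transcription factor induced early by interferon gamma, rose from 75.3, 65.6 and 76.7 FPKM to 187, 180 and 162 FPKM, a log2 difference of 1.27 (SE 0.13, adjusted p = 0.00651). *Cd274*, which encodes PD-L1, rose from 319, 257 and 209 to 631, 614 and 468 FPKM (adjusted p = 0.0220), and *Cd40*, a co-stimulatory receptor, from 147, 119 and 101 to 295, 262 and 185 FPKM (adjusted p = 0.0396). *Ciita*, the master regulator of MHC class II genes, fell from 1.03, 1.28 and 1.63 to 0.601, 0.373 and 0.487 FPKM (adjusted p = 0.0426). It reached the filter through the controls alone. B cells also express *Ciita*, and their markers were lower in the same libraries. The call of *Irf1* held in 11 of 13 alternatives and was lost without control 2 or knockout 1. That of *Cd274* held in 9 of 13 and was otherwise lost without control 2, knockout 1 or knockout 2. That of *Cd40* held in 6 of 13 and was lost in those same fits and also after median-of-ratios rescaling, with voom and on all listed genes. That of *Ciita* held in 6 of 13 and was otherwise lost with the block, on all listed genes and without control 2 or any 1 knockout. With the replicate block 9 were higher and 0 were lower (3.90% and 5.57% of all genes tested), and without control 2 or knockout 1 only *Fcgr1* passed.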

How the data were processed

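RNA of 6 PEM libraries, 3 per group, was compared. The deposited table gives FPKM per library, which the authors computed from mapped reads, and base means per group, a normalised signal from the authors whose size factors equalled median-of-ratios factors of the recovered reads. The submitters' notes list the genome build mm9, and the aligner and counter are not given in the sources used here. The authors' own fold changes, p-values and q-values in the table were not used. Promoters come from RefSeq on GRCm38.p6, and no coordinates were moved between builds.

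Genes with a mean of at least 1 FPKM in 1 group were tested with limma 3.58.1 in R 4.3.3 (lmFit, eBayes with a trend) on log2(FPKM + 1), two-sided, adjusted by Benjamini-Hochberg, with a threshold of 0.05. Fold changes are on that scale, which understates low genes. *Ifnb1* was read from the same fit over all listed genes. Whole reads were recovered from FPKM and the base means, and 100% of values came out whole within 0.01 reads. The 6 libraries held 36170767 to 42217558 such reads. Groups follow the sample titles. The labels do not say whether libraries came from separate mice, so p-values measure only the spread between these libraries. Deviations of same-numbered libraries from their group means correlated at 0.109, 0.110 and 0.304 across genes tested, so the number was also fitted as a block, although knockout 2 correlated more with control 1 (0.291). Alternatives were the block, no filter, at least 10 reads in every library, a pseudocount of 0.1, median-of-ratios rescaling, voom on the recovered reads, and each library left out. Leaving out knockout 2 and control 3 together, and all alternatives of *Ifnb1* on unfiltered genes, were chosen after seeing the data. Ratios used exact two-sided permutation tests.

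The script was tested on simulated data. The members, the 8 pathway lists and the 12 marker lists were chosen with earlier results of these data known, and no list was tested as a set. Named besides the members were *Timd4*, *Lyz2*, *Il10rb*, *Jak3*, up to 4 genes past the threshold per pathway list by absolute difference (or, where under 2 passed, also the 2 tested genes of highest mean), and the 3 genes most like *Ifnb1* and *Ifngr1*. *Ciita*, *Ifng* and single markers were named after their values were seen. One gene that this rule names is not reported here.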

Additional observations from a re-analysis of the deposited data

How the results depend on the processing

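Of the 7 members tested 0 passed under any alternative on filtered genes, and 1 member, *Ifnb1*, passed when no filter was set. *Ifnb1* kept its direction in all 11 alternatives on unfiltered genes and passed in 3 of them. With the replicate block, which rests on the pairing of the numbers, its log2 difference was 0.61 (adjusted p = 0.0760), it was 0.62 (adjusted p = 0.161) without knockout 2 and control 3, and leaving out 1 library gave 0.50 to 0.72, none past the threshold. *Ifnar1*, *Ifngr1*, *Ifngr2*, *Jak1* and *Tyk2* kept their direction in all 13 alternatives. *Jak2* turned from -0.01 to 0.14 with rescaling and 0.14 with voom, and leaving out 1 library gave -0.15 to 0.10, while *Ifnar2* ranged from -0.016 to 0.067 when 1 library was left out. The log2 ratio of *Jak2* to *Jak1* turned to 0.062 without control 2, and leaving out 1 library gave -0.25 to 0.062. The cause of these turns was not tested.

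Counts over all genes depended on single libraries. Without 1 library the calls ranged from 8 to 1278 in all, 1 to 513 higher and 7 to 765 lower. The replicate block gave 352 higher, and no filter 141 higher. The share of calls that were higher was 35.2%, against 51.3% after rescaling and 50.6% with voom. With 6 reads per control, *Ifnb1* is limited by depth, and 3 libraries a group cannot give an exact permutation p below 0.1.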
